A study of Caenorhabditis elegans with 6 samples.

Results

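The libraries described here are the 4 DamID count columns of the C. elegans strain coded PMW179, of which 2 come from males and 2 from hermaphrodites. They were chosen by strain code and sex, and 4 of the 12 columns of the count table belong to them. All 1005 nuclear bins of 100 kb entered, 178 on X and 827 on the 5 autosomes, out of 1006 bins in the table. The remaining bin is mitochondrial. In DamID a protein is fused to Dam, a bacterial enzyme that adds a methyl group to the adenine of GATC, so that DNA close to the protein becomes marked. Methylated sites are then cut out with DpnI, amplified and sequenced, so a read count also follows the number of DNA copies in the animals.

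The males of the tested comparison and the hermaphrodites set against them were whole animals at the L4 larval stage, kept at 25 °C with E. coli as food. Both sexes expressed the same Dam fusion from the heat-shock promoter of hsp-16.41 without heat shock, which gives low leaky expression in many tissues, so the counts average over cell types. Labels describe 20 animals per sample and 10 worms per tube, and the series design gives at least 2 replicates per strain. The numbered columns were taken as these replicates. Whether they came from separate cultures is not stated, so the spread between them may be technical. The series has 3 constructs, with Dam joined to mel-28, gfp or lmn-1. The PMW179 columns were taken as the mel-28 fusion, but no label or file header ties the code to a construct and no other source was at hand to check it. The strain is therefore called by its code.

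MEL-28, known as ELYS in vertebrates, is a chromatin-binding nucleoporin needed to build nuclear pores. C. elegans males carry 1 X chromosome and hermaphrodites 2, with 2 copies of each autosome in both. A condensin-containing dosage compensation complex binds both hermaphrodite X chromosomes and lowers their transcription, and it does not act in this way on the male X. The comparison bears on whether the single male X meets the fusion differently from the 2 hermaphrodite X chromosomes.

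The sexes differed in depth. PMW179 males had 19798 and 12633 nuclear reads in replicates 1 and 2, against 159368 and 109515 in PMW179 hermaphrodites. A median autosomal bin held 12 and 8 reads in the males, against 106 and 68 in the hermaphrodites. On the autosomes 4 and 16 bins were at 0 reads in the males, against 1 and 1 in the hermaphrodites, and on X 1 and 7, against 0 and 0. The 2 male libraries differed from each other by more than sampling noise over autosomal bins, with a chi-square of 1.48 per degree of freedom, and the 2 hermaphrodite libraries by 5.83. No pair was thus counted as one library. The Spearman correlation over autosomal bins was 0.71 in the males and 0.88 in the hermaphrodites. Both measures change with depth, so neither shows which sex had the closer replicates. Counts were read as shares of each column's autosomal total. Intervals given below cover counting error only, because PCR reads without molecular identifiers are not independent molecules.

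X was lower in males than in hermaphrodites, by less than its copy number, and the 2 male libraries did not give the same size. Reads per X bin over reads per autosomal bin came to 0.882 in male replicate 1 (95% Wilson interval 0.849 to 0.916) and 0.640 in male replicate 2 (0.606 to 0.675). Hermaphrodites had 1.11 (1.09 to 1.12) and 1.05 (1.03 to 1.06). Both male values lay below both hermaphrodite values, and both lay above 0.538, which is 50% of the hermaphrodite mean and the value that 1 X copy for 2 would give.

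On the log2 scale the X level was -0.18 and -0.64 in males, with a mean of -0.41 ± 0.33 (SD, n = 2). Hermaphrodites had 0.15 and 0.06, with a mean of 0.11 ± 0.06 (SD, n = 2). The difference, male minus hermaphrodite, was -0.52, a ratio of 0.698. Taken singly, male replicate 1 was at -0.29 and male replicate 2 at -0.75 relative to the hermaphrodite mean. These lie 0.71 and 0.25 above the -1 of the copy number. An exact two-sided permutation test over the 4 columns gave p = 0.333, the smallest that 2 against 2 allows. The replicates of the males thus differed by 0.46 in the X level, close to the size of the sex difference itself, whereas the hermaphrodite replicates differed by 0.08. As a share of nuclear reads, X held 16.0% and 12.1% in males, against 19.2% and 18.4% in hermaphrodites.

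**Figure D1:**
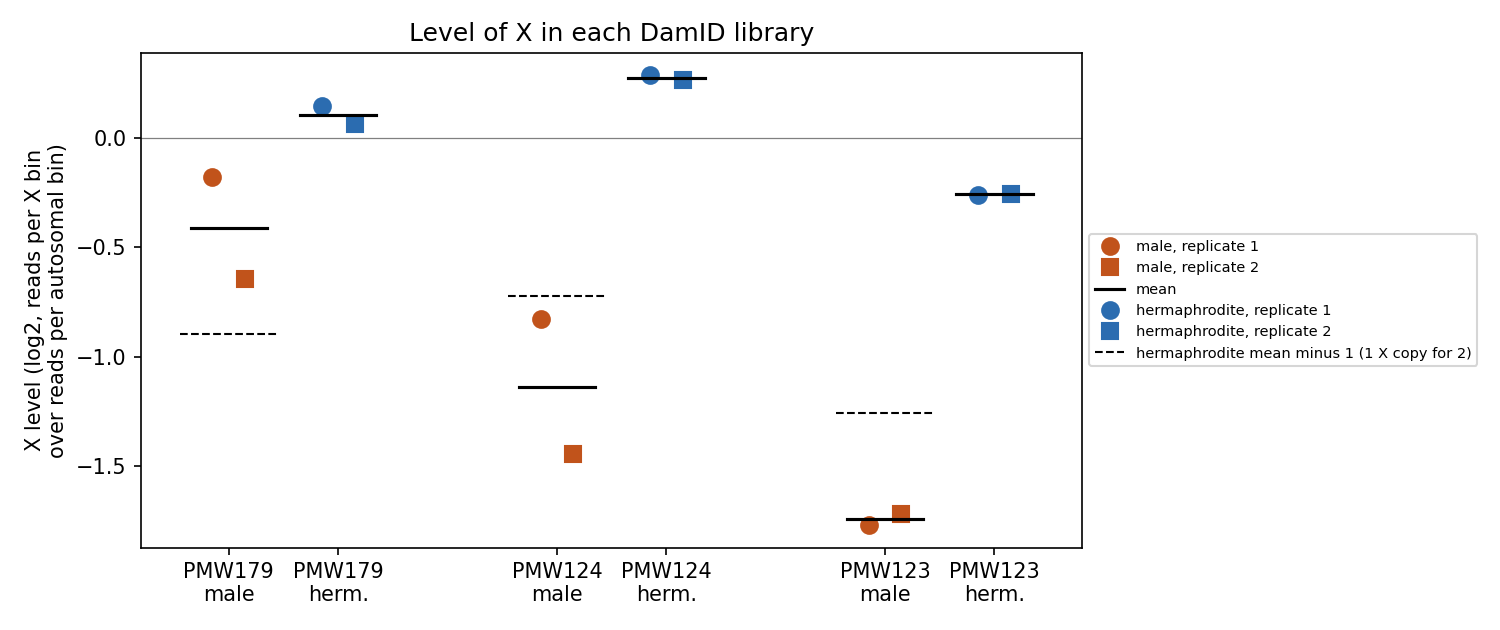
The vertical axis gives the X level, the log2 of reads per X bin over reads per autosomal bin, for the 2 libraries of each strain and sex. Solid lines are means and dashed lines mark the hermaphrodite mean minus 1. Both PMW179 males, at -0.18 and -0.64, lie between their hermaphrodites and the dashed line, while 4 of 4 male libraries of PMW124 and PMW123 lie below their dashed lines.

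No autosome moved as far as X. Each autosome was set against the other 4, and the difference between males and hermaphrodites was 0.05 on I, 0.03 on II, 0.09 on III, -0.02 on IV and -0.17 on V. Chromosome V had levels of -0.66 and -0.71 in males, against -0.46 and -0.57 in hermaphrodites. Chromosome III had 0.37 and 0.52 in males, against 0.34 and 0.36 in hermaphrodites. The sexes did not overlap on III and V and overlapped on I, II and IV, and every one of these exact permutation tests gave p = 0.333 or above. With the median over bins in place of the sum, I, III and IV changed sign, to -0.04, -0.08 and 0.05, and V came to 0.002, so none of the autosomal directions holds across both estimates except that of II, which came to 0.10.

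**Figure D2:**
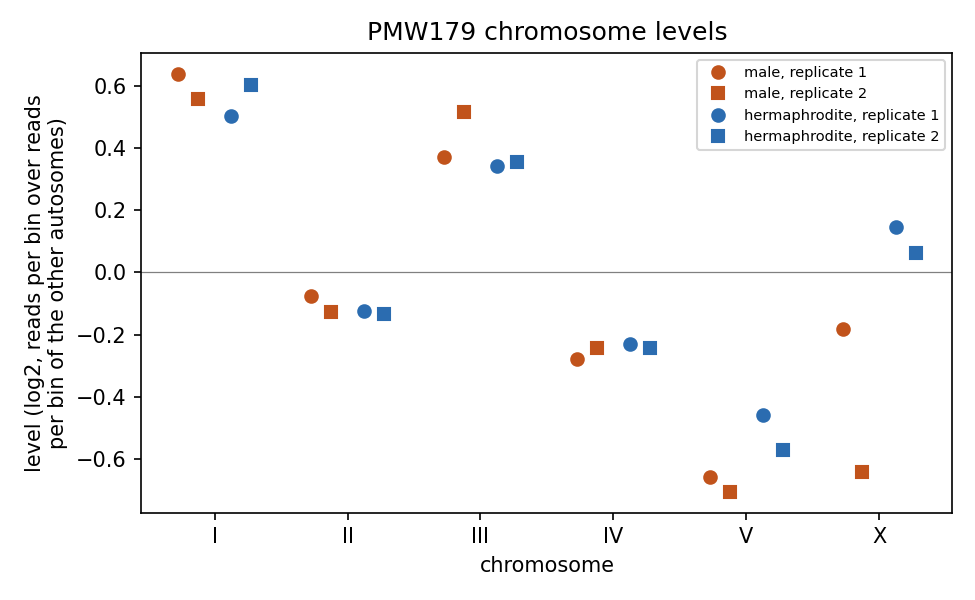
The vertical axis gives the level of each chromosome in the 4 PMW179 libraries, as the log2 of reads per bin over reads per bin of the other autosomes (of all autosomes for X). The male and hermaphrodite means lie apart by 0.52 on X and by at most 0.17 on the autosomes, and the points of the sexes overlap on I, II and IV.

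The lower X in males was spread along the chromosome. X was cut into 3 parts of equal bin number and each was set against all autosomes. The left part had a level of 0.05 and -0.27 in males, against 0.43 and 0.34 in hermaphrodites, a difference of -0.50. The middle part had -0.68 and -1.29 in males, against -0.37 and -0.41 in hermaphrodites, a difference of -0.59. The right part had -0.03 and -0.56 in males, against 0.26 and 0.16 in hermaphrodites, a difference of -0.50. With the median over bins the differences were -0.62 on the left part, -0.47 on the middle one and -0.24 on the right one. Which part differed most thus depended on the estimate. In each part both males lay below both hermaphrodites, and male replicate 2 lay below male replicate 1. The left part was the highest and the middle part the lowest of the 3 in 4 of 4 libraries. This order is not particular to PMW179, since every library of PMW124 and PMW123 had it too.

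Windows of 10 neighbouring bins, a choice made after the low male counts had been seen, were also compared. The last window of a chromosome can be shorter, with 1 bin on I, 3 on II, 8 on III, 5 on IV and 8 on X. All 18 windows on X were lower in males, with edgeR log2 differences from -0.79 to -0.24, and all 18 lay above -1. Scaled to the autosomal total, 56 of 85 autosomal windows were lower in males, with a median of -0.07. Their estimates ranged from -0.65 to 0.48, where -0.65 is the single last bin of I and the lowest full window was at -0.42. Male replicate 1 was below the hermaphrodite mean in 18 of 18 X windows, with a median of -0.30, and male replicate 2 was too, with a median of -0.79. Replicate 1 exceeded replicate 2 in 18 of 18 X windows, by a median of 0.48, but in 45 of 85 autosomal windows, by a median of 0.01. The scaling to the autosomal total holds the autosomal average equal by construction, so the gap on X is relative to it. All 18 X windows of replicate 1 lay above -1, against 13 of 18 windows of replicate 2. None of the 103 windows passed an adjusted p of 0.05, the lowest on X being an adjusted p of 0.144 (edgeR). At an unadjusted p under 0.05 in edgeR there were 12 X windows and 5 autosomal ones, of which 1 is that single bin.

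**Figure D3:**
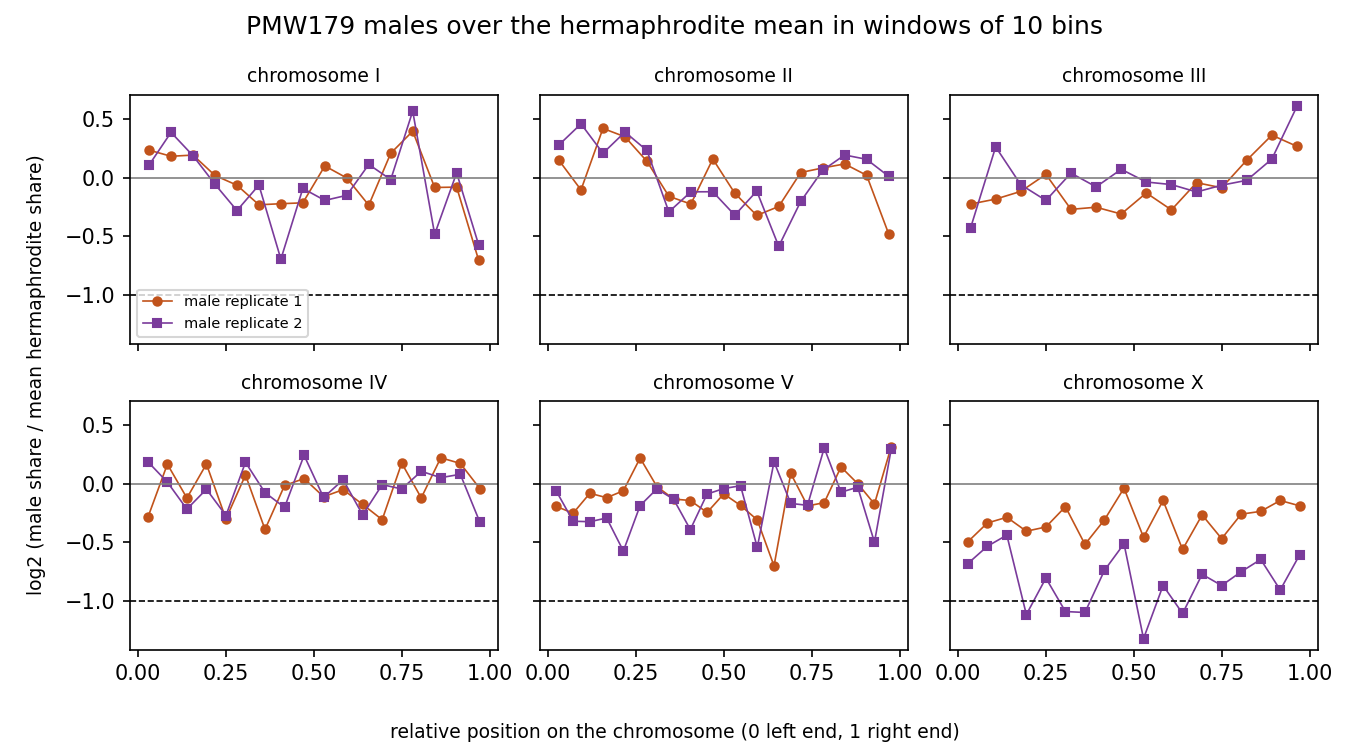
Each panel is a chromosome, with relative position on the horizontal axis and, on the vertical axis, the log2 ratio of a PMW179 male library's share to the mean hermaphrodite share in windows of 10 bins, fewer in the last window. The dashed line marks -1. On X both male libraries lie below 0 in 18 of 18 windows and replicate 1 lies above replicate 2 throughout, while on the autosomes the 2 cross.

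The X windows with the largest and smallest differences show the counts behind these values. In ce10, positions were taken as consecutive steps of 100 kb from the left end of each chromosome, because the table numbers the bins and gives no coordinates. The window at X 9000001 to 10000000 had 142 and 52 reads in males, against 1599 and 986 in hermaphrodites, with an edgeR log2 difference of -0.79 ± 0.23 (SE). The window at X 8000001 to 9000000, next to it, had 227 and 109 reads in males, against 1719 and 1312 in hermaphrodites, with -0.24 ± 0.17 (SE). These 2 windows are neighbours and hold both ends of the range seen on X, and whether they differ from each other was not tested.

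In single bins no sex difference passed the threshold. The edgeR quasi-likelihood test was run on the 1001 nuclear bins with at least 20 reads over the 4 libraries, 824 autosomal and 177 on X. At a Benjamini-Hochberg adjusted p of 0.05 it called 0 bins, which is 0% of those tested, and the lowest adjusted p was 0.475. DESeq2 called 0 as well, with 16 autosomal bins at an unadjusted p under 0.05. Among the X bins 162 of 177 had a lower estimate in males, with a median log2 difference of -0.56, against 499 of 824 autosomal bins with a median of -0.10. With TMM factors the medians were -0.47 on X and -0.02 on the autosomes, and with DESeq2 they were -0.47 and -0.01. The lower autosomal median thus depended on the scaling. At an unadjusted p under 0.05 in edgeR, 39 X bins were lower in males and 0 higher, a direction that 6.79% of all tested bins showed. When single libraries were left out, the median X bin ran from -0.94 (without male replicate 1) to -0.39 (without male replicate 2). Counted in either direction, X bins at an unadjusted p under 0.05 came to 23 in edgeR with TMM factors and 7 in DESeq2. On the autosomes 29 bins were lower and 20 higher at that level, 49 of 824 in all, and with TMM factors 18 were lower and 29 higher. Higher bins made up 2% of all tested bins.

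Both male libraries lay below both hermaphrodite libraries in 118 of the 177 X bins, against 32.1% of all bins tested and 24.6% of autosomal bins. Both lay above in 2 X bins, against 12.4% of all bins tested and 14.8% of autosomal bins. Taken alone, male replicate 1 was below both hermaphrodites in 127 X bins and male replicate 2 in 156, while on the autosomes the corresponding numbers were 355 and 399 of 824. All of these counts rest on shares of the autosomal total, and no other scaling was tried for them.

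Set against the copy number, X bins lay above it more often than below. With the expected male count on X lowered by a factor of 2, the median X bin was 0.43 above the expectation, and 136 of 177 bins lay above it. No X bin passed an adjusted p of 0.05 in edgeR, where the lowest adjusted p was 0.494. At an unadjusted p under 0.05 in edgeR there were 27 X bins above the copy number and 0 below, where above-expectation calls at that level made up 4.7% of all bins tested. The size of this excess differed between the male libraries. Relative to the median autosomal bin of the same fit, the median X bin was 0.54 above the copy number with both males, 0.20 without male replicate 1 and 0.71 without male replicate 2. Before that adjustment the fit without male replicate 1 gave 0.06, with 96 of 177 bins above, and the fit without male replicate 2 gave 0.61, with 147 of 177 above. Set directly against the hermaphrodite mean, 160 X bins of male replicate 1 and 107 of male replicate 2 lay above -1. Without hermaphrodite replicate 1 or 2 the fit gave a median of 0.49 or 0.35, also before that adjustment. Counted in either direction, the X bins at an unadjusted p under 0.05 in edgeR depended on the setting. They ran from 12 in the fit to all 12 columns to 37 when scaled to the total over all nuclear bins.

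**Figure D4:**
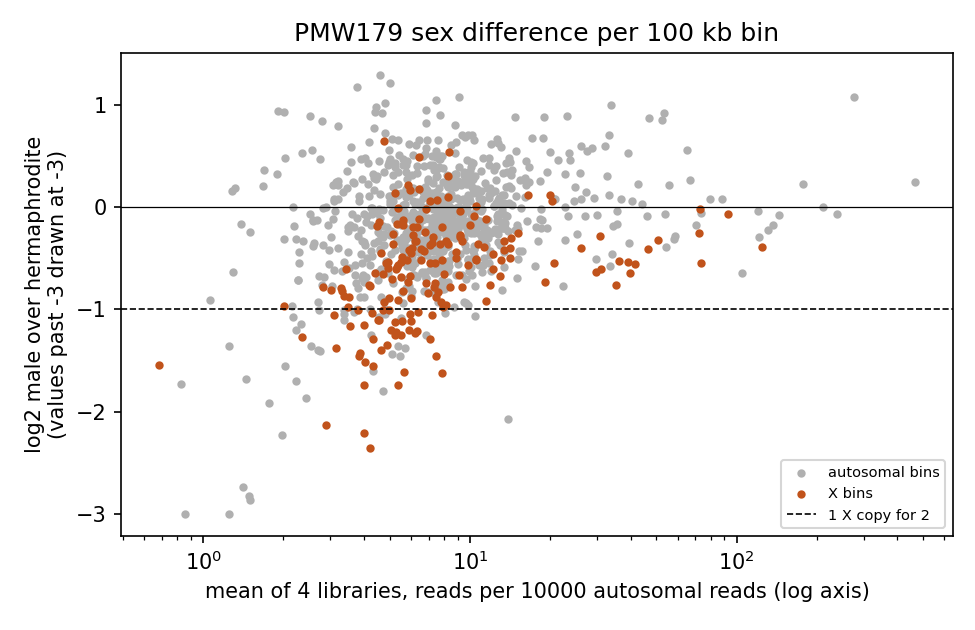
Each point is 1 of 1001 bins, with the mean reads per 10000 autosomal reads over the 4 PMW179 libraries on a log horizontal axis and the edgeR log2 difference, male over hermaphrodite, on the vertical axis. The X bins centre on -0.56 between the line at 0 and the dashed line at -1, and the autosomal bins on -0.10. Values past -3 are drawn at -3.

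The X bins at the extremes held few male reads, and none of them passed the threshold. The lowest was X 16000001 to 16100000, with 4 and 0 reads in males, against 131 and 39 in hermaphrodites (log2 difference -2.36 ± 0.79, SE). It was followed by X 11700001 to 11800000, with 3 and 1 reads in males, against 102 and 48 in hermaphrodites (-2.21 ± 0.65, SE). Then came X 13800001 to 13900000 at -2.14, X 17000001 to 17100000 at -1.74 and X 1300001 to 1400000 at -1.74.

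The highest X bin was X 5700001 to 5800000, with 13 and 4 reads in males, against 52 and 32 in hermaphrodites (log2 difference 0.65 ± 0.48, SE). Next was X 14000001 to 14100000, with 15 and 12 reads in males, against 75 and 69 in hermaphrodites (0.54 ± 0.37, SE). This bin and its near neighbour X 13400001 to 13500000, at 0.50 ± 0.42 (SE), were the 2 X bins in which both males lay above both hermaphrodites. X 7600001 to 7700000 had 0.31 and X 13500001 to 13600000 had 0.22. At X 13500001 to 13600000 the males split, with 10.2 reads per 10000 autosomal reads in replicate 1 and 1.80 in replicate 2, against 4.58 and 6.94 in hermaphrodites.

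Autosomal bins are given as values, since none was called. The higher ones, taken by lowest p, were spread over 3 chromosomes. At III 11100001 to 11200000 the males had 43.3 and 46.8 reads per 10000 autosomal reads, against 19.0 and 26.0 in hermaphrodites (log2 difference 1.00 ± 0.30, SE). At II 4200001 to 4300000 they had 28.8 and 31.5, against 13.9 and 18.5 (0.90 ± 0.29, SE). The other 2 were on I, at 2400001 to 2500000 with 0.88 ± 0.29 (SE) and at 12700001 to 12800000 with 1.08 ± 0.37 (SE).

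Some of the lower autosomal bins rested on very few male reads. At IV 6800001 to 6900000 the males had 5 and 1 reads, against 109 and 58 in hermaphrodites (log2 difference -1.80 ± 0.57, SE). At V 18600001 to 18700000 both males had 0 reads, against 44 and 14 in hermaphrodites. With 3 counts over the 2 male libraries taken as a floor, the males would be 2.46-fold lower there. The bin was picked by its low p, so this value is not a lower bound. At IV 4100001 to 4200000 the hermaphrodites themselves differed, with 37.4 and 7.38 reads per 10000 autosomal reads, against 5.41 and 5.40 in the males (9 and 6 reads). At II 7000001 to 7100000 the males had 7.21 and 6.30, against 16.9 and 11.5 in hermaphrodites (-1.06 ± 0.36, SE). The males had 12 and 7 reads in that bin, near the 12 and 8 of their median autosomal bin.

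A single autosomal bin passed the threshold when male replicate 1 was left out, and it was looked at for that reason after its values had been seen. It is III 13600001 to 13700000, near the right end of III, with 269 and 479 reads per 10000 autosomal reads in males, against 166 and 188 in hermaphrodites. With all 4 libraries its log2 difference was 1.08 ± 0.37 (SE) at an edgeR adjusted p of 0.475. PMW123 males were higher there too, with 246 and 283 reads per 10000 autosomal reads, against 176 and 172 in PMW123 hermaphrodites. The PMW124 males split, with 376 and 159, against 213 and 216 in PMW124 hermaphrodites. The bin III 13600001 to 13700000 is also among the bins with the most reads in every PMW179 library. The highest was I 500001 to 600000, with 525 and 484 reads per 10000 autosomal reads in males, against 367 and 484 in hermaphrodites. The bins III 13700001 to 13800000, IV 3200001 to 3300000 and I 11600001 to 11700000 completed the first 5, and the sexes overlapped in each of these except III 13600001 to 13700000. The 10 highest bins of each library held 18.5% and 18.2% of nuclear reads in males, against 14.2% and 17.5% in hermaphrodites. No gene was placed in any of these bins, since the gene table at hand belongs to the build WBcel235.

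On the autosomes, arms were on average higher relative to centres in males. C. elegans autosomes have gene-dense centres and arms richer in repeats, and the outer and middle of 3 equal parts stood for them here. Arms over centre, averaged over the 5 autosomes, was 0.57 and 0.52 (log2) in males, against 0.27 and 0.44 in hermaphrodites. The mean difference was 0.19, with an SD of 0.12 between the hermaphrodites and of 0.03 between the males. Replicate 1 minus replicate 2 was -0.17 in hermaphrodites, close in size to the sex difference, and 0.04 in males. In males of the other strains, PMW124 and PMW123, it was 0.78 and -0.53. The exact permutation test of the sex difference gave p = 0.333, the smallest possible. Without hermaphrodite replicate 1 the sex difference was 0.10, and without hermaphrodite replicate 2 it was 0.27.

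The contrast had the same sign on 5 of 5 autosomes. On I it was 1.32 and 1.38 in males, against 0.98 and 1.24 in hermaphrodites. On II it was 0.31 and 0.39 in males, against 0.04 and 0.14 in hermaphrodites. On III it was 0.79 and 0.73 in males, against 0.38 and 0.55 in hermaphrodites. The sexes did not overlap on I, II, III and IV, with differences of 0.23, 0.26, 0.29 and 0.08, and they overlapped on V, where the difference was 0.07. The left and right arms were not always alike. On III the left arm differed by 0.03, with overlap, and the right arm by 0.39, without. On V the left arm differed by 0.004 and the right arm by 0.18, both with overlap. Each arm of I, II and IV was higher in males without overlap. On X arms over centre was 0.69 and 0.88 in males, against 0.71 and 0.66 in hermaphrodites, and the sexes overlapped.

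**Figure D5:**
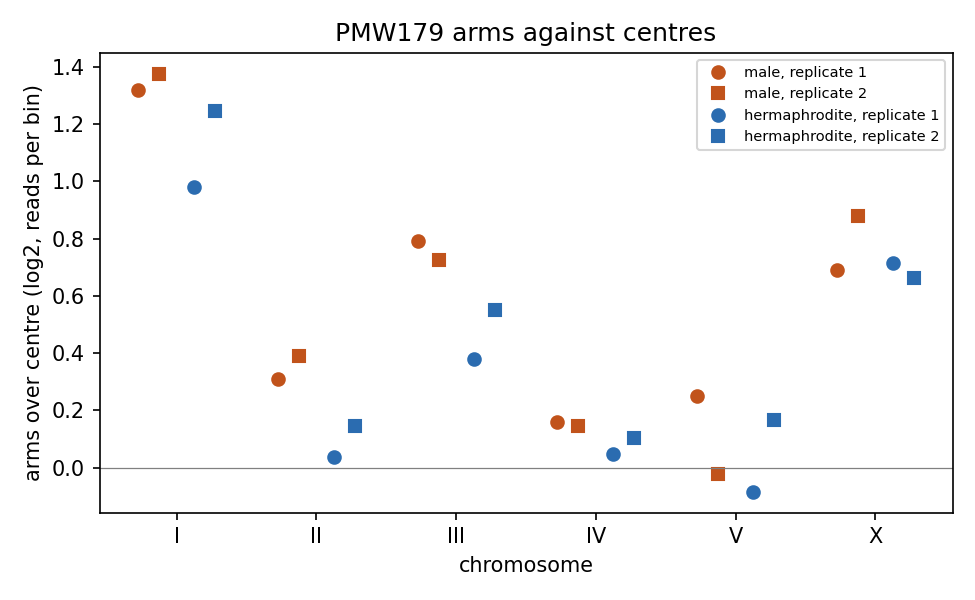
The vertical axis gives arms over centre, the log2 of reads per bin in the 2 outer parts over reads per bin in the middle part, for each chromosome in the 4 PMW179 libraries. Males lie above hermaphrodites on I, II, III and IV, with differences from 0.08 to 0.29.

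The other 2 strains, measured the same way, had a lower male X than PMW179. PMW124, whose entries are 1 wherever a value is given in the deposited ratio table, had an X level of -0.83 and -1.44 in males, against 0.28 and 0.27 in hermaphrodites. PMW123 had -1.77 and -1.72 in males, against -0.26 and -0.26 in hermaphrodites. Their sex differences were -1.41 and -1.49, both past the -1 of the copy number, against -0.52 in PMW179. No male library of PMW179 overlapped a male library of either strain, and each male library of the other strains lay below 50% of its hermaphrodite mean.

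The sex difference of X was higher in PMW179 than in PMW124 by 0.89 (log2), a factor of 1.86. Exchanging strain labels within each sex gave this size in 2 of 36 arrangements, an exact two-sided permutation p = 0.0556, the smallest that this design allows (0.111 adjusted over the 2 strains compared). Against PMW123 the excess was 0.97, with an exact permutation p = 0.333 (0.333 adjusted). Neither test passed 0.05. Because labels were exchanged separately in each sex, a strain difference in X level shared by both sexes also widens these arrangements. PMW123 was lower than PMW179 in both sexes, with means of -0.26 against 0.11 in hermaphrodites and -1.74 against -0.41 in males. The 2 p-values therefore do not rank the 2 excesses. The PMW124 males differed between replicates as well, by 0.61 on X, with replicate 1 the higher as in PMW179, whereas the PMW123 males differed by -0.05. Without PMW124 male replicate 1 the excess over PMW124 was 1.20 and without its replicate 2 it was 0.59. The excess of PMW179 over PMW124 came to 0.96 on the left part of X, 0.65 on the middle one and 0.97 on the right one.

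Per bin, the strain by sex interaction with PMW124 was called in 1 bin, or 0.0999% of those tested, by edgeR over all 12 columns. It was X 14000001 to 14100000, the bin already noted as the second highest on X, with an interaction of 3.07 (log2) at an edgeR adjusted p of 0.016. PMW179 had 9.01 and 10.8 reads per 10000 autosomal reads there in males, against 5.83 and 7.72 in hermaphrodites. PMW124 had 3.87 and 3.84 in males, against 27.8 and 17.4 in hermaphrodites, from 10, 32, 52 and 42 reads in that order. At an unadjusted p under 0.05 in edgeR, 30 X bins had a higher sex difference in PMW179 than in PMW124 and 0 a lower one, a direction shown by 3.5% of all bins tested. On the autosomes 5 bins were higher and 38 lower, with a median interaction of -0.25, against 0.78 on X. With TMM factors the autosomal median was -0.03, with 9 bins higher and 27 lower, and the X median was 0.99. Without PMW124 male replicate 2 the autosomal median was 0.04. When single libraries were left out, the median interaction on X ran from 0.28 (without PMW179 male replicate 1) to 1.02 (without PMW179 male replicate 2). Relative to the median autosomal bin of the same fit, the X median was 1.03 with all libraries. It then ran from 0.60 (without PMW179 male replicate 1) to 1.30 (without PMW124 male replicate 1). Leaving out any of 5 of the 8 libraries involved ended the adjusted call, and leaving out PMW124 male replicate 1 gave 5 called X bins. Against PMW123 no bin was called, 0% of those tested, while 44 X bins were higher at an unadjusted p under 0.05 in edgeR and 0 lower, against 5.39% of all bins in that direction. The autosomes had 10 higher and 21 lower. The median interaction with PMW123 on X was 0.93. It ran from 0.60 (without PMW179 male replicate 1) to 1.17 (without PMW123 male replicate 1) when single libraries were left out.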

How the data were processed

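The data are DamID reads at GATC sites. The authors deposited whole-number read counts per 100 kb bin, per the file headers, with 2 columns per strain code and sex. The submitters' processing notes list the tools SAMtools, cutadapt and Bowtie and the build ce10. Their versions, settings and handling of duplicates: not given in the sources used here. Values of the deposited ratio table entered no calculation and served only to describe PMW124.

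Columns were grouped by strain code and sex. Counts were scaled to each column's autosomal total, without normalization factors. Bins with at least 20 reads over the 4 PMW179 columns were tested with edgeR 4.0.16 (quasi-likelihood, Benjamini-Hochberg over all bins tested), and standard errors were derived from the F statistic. The common biological coefficient of variation was 0.182. A second fit lowered the male X offset by a factor of 2. DESeq2 1.42.0 was an alternative, together with TMM factors, other filters, a fit to all columns and leaving out libraries. Levels of chromosomes and parts were log2 ratios of reads per bin, compared by exact permutation tests over columns.

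Bins were named by rank: by lowest p on the autosomes and by largest difference on X. Members, comparisons and rules were chosen with earlier results of these data known. Mitochondrial reads were left out of scaling and tests.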

Additional observations from a re-analysis of the deposited data

Results flagged for a closer look

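The mitochondrial bin lies outside the comparisons above and stood out in PMW179. It held 1.10 and 1.35 reads per 100 autosomal reads in PMW179 males (mean 1.23), against 0.209 and 0.189 in PMW124 males, a 6.16-fold difference. PMW179 hermaphrodites had 1.39 and 1.09 (mean 1.24), against 0.267 and 0.294 in PMW124 hermaphrodites, a 4.42-fold difference. All 4 PMW179 libraries lay above all 4 PMW124 libraries, and the sexes of PMW179 overlapped. PMW123 had 0.353 and 0.429 in males, against 0.426 and 0.546 in hermaphrodites. The difference between strains was not tested.

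The bin X 14000001 to 14100000 was singled out because its sex difference was higher in PMW179 than in PMW124 by 3.07 (log2, edgeR adjusted p of 0.016).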

How the results depend on the processing

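For PMW179 the X sex difference kept its sign and stayed within the replicate SD (0.24) under the median over bins and without the highest 1% of bins. Without each library in turn it kept its sign and ran from -0.75 to -0.29. With 2 libraries per sex such a shift cannot exceed that SD, so the SD is no yardstick there. The arm contrast and the 3 parts of X kept their signs too, the right part at -0.24 under the median over bins. Single autosomes did not: under the median over bins I came to -0.036, III to -0.077, IV to 0.049 and V to 0.0022, without the highest bins III came to -0.044 and IV to 0.015, and I ran from -0.0040 to 0.096 when libraries were left out. No sex difference of a bin was called under any other scaling, filter, DESeq2, the fit to 12 columns or the windows. Without single libraries 0 to 1 autosomal bins were called, in the copy number fit also 0 to 1. The interaction with PMW124 had 0 to 2 autosomal and 0 to 5 X calls without single libraries, and its X excess ran from 0.59 to 1.20. That with PMW123 had 3 X calls under TMM factors, an X excess of 1.22 under the median over bins and of 0.74 to 1.20 without single libraries. The causes of these shifts were not tested. With the column number as a replicate block, 0 bins were called; no label says that the number pairs columns, and the level differences stay the same by construction. Male bins of about 10 reads limit what single bins can show: an absent call does not show an equal share.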

Other observations

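In PMW124 the male libraries differed in arms over centre of the autosomes, with 0.87 and 0.09 (log2), against 0.67 and 0.69 in PMW124 hermaphrodites. PMW124 male replicate 2 also had the lower X level of that pair. The PMW123 males differed as well, with 1.47 and 2.00, against 1.65 and 1.60 in PMW123 hermaphrodites. The PMW179 males were at 0.57 and 0.52.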
